A study of Mus musculus with 4 samples.

Results

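The clustered protocadherins were taken as all protein-coding genes whose mouse symbols begin with Pcdha, Pcdhb, Pcdhga, Pcdhgb or Pcdhgc and go on with their number, or with Pcdhac. This rule uses names alone and gave 57 of the 52636 genes in the count files, with 14 in the alpha, 22 in the beta and 21 in the gamma cluster. A further gene with such a name, *Pcdhgb8*, is annotated as a polymorphic pseudogene and was left out. All members lie on the plus strand of mouse chromosome 18 (GRCm38, the build called mm10), the alpha cluster at chr18:36930184-37187661, the beta cluster at chr18:37264938-37524479 and the gamma cluster at chr18:37661793-37841873. They were compared between 2 Control and 2 *Eya1*cKO libraries of tdTomato-positive cells that had been sorted from embryonic mouse kidneys. Control embryos carried the *Eya1*CreER allele, in which the *Eya1* locus drives a tamoxifen-inducible Cre, and the *R26-tdTomato* reporter. *Eya1*cKO embryos carried both of these and floxed *Eya1* alleles, so Control cells also have the CreER insertion and were also exposed to tamoxifen. The kidneys were collected at about E12.75, 48 h after tamoxifen was first given, from mice of mixed C57BL/6J and 129/Sv background.

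Clustered protocadherins are cell-surface proteins of the cadherin family that bind like molecules on neighbouring cells. In the alpha and gamma clusters every member has its own promoter and its own large first exon, which is spliced to short constant exons that all members of the cluster share, whereas beta members are single-exon genes. A cell uses only some of the promoters, a choice that involves CTCF, cohesin and DNA methylation, and in neurons the resulting sets of isoforms serve recognition of self and survival. The last members of the alpha and gamma clusters, called C-type, differ from the others in sequence and regulation. In the kidney field these clusters are best known from Wilms tumour, a tumour resembling nephron progenitors, in which they are often silenced by methylation.

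Below, library 1 of a genotype is given before library 2, and the *Eya1*cKO libraries are also called the mutant libraries or mutants. The targeted gene was much lower in the mutant libraries: *Eya1* was counted 6612 and 6420 times in the Controls but 377 and 219 times in the mutants (log2 fold change -3.60 ± 0.18 SE, adjusted p = 1.9e-04 by edgeR's quasi-likelihood test). Each library came from 5000 cells, and between 35411905 and 37999342 reads were counted on genes in the Controls against 17457452 to 22239293 in *Eya1*cKO. Reads that lay on no gene made up 12.9% to 13.9% of the Control and 20.9% to 22.7% of the *Eya1*cKO libraries. The labels give 6 kidneys per genotype from 4 females, while the study's methods give other numbers of kidneys and females, and by the methods the suspensions had been pooled for the sort. The p-values therefore measure the spread between portions of sorted cells, which may be technical. In the fit across all genes, 1820 of 19041 genes tested (9.56%) differed at an adjusted p threshold of 0.05.

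The structure of the clusters decided which reads could be assigned to a member. Every alpha member shared exonic sequence with other alpha members, between 38% and 54.9% of its exonic length (median 53.5%, or 2860 bases). Every gamma member did so too, between 27.8% and 66.8% (median 44.6%, or 2119 bases). Of the beta members only *Pcdhb21* and *Pcdhb22*, which share 9.67% and 6.88% of their length, overlapped another member. Reads in such shared bases had not been assigned to any gene: over the whole annotation, 97.6% of the 720 genes with no base of their own on their strand had no read in any library, against 35% of the 40925 genes almost free of overlap. Genes with bases of their own on their strand but with other genes opposite all of them were likewise without reads in 255 of 263 cases, the pattern left by counting without regard to strand. An alpha or gamma count is thus mostly a count of reads in a member's own first exon, away from any gene annotated on the other strand. With strand ignored, such a count can also include reads from the opposite strand. On their own strand only *Pcdha11*, *Pcdhgb1* and *Pcdhgb4* have bases of their own beyond the first exon. Of the 4606 such bases of *Pcdha11* in all its exons, 1268 have no gene on the other strand. For *Pcdhga10* no such base remained, since another gene, *Gm26672*, runs opposite its first exon, and it had no reads. Under 40% of the exonic length remained for 10 members in all, among them *Pcdha4* (7%), *Pcdha11* (16.8%), *Pcdhga11* (26.4%), *Pcdhgc3* (33.1%), *Pcdhga4* (33.2%), *Pcdha6* (35.1%), *Pcdha12* (36.4%), *Pcdhb12* (36.5%) and *Pcdhgb7* (38.7%), and their counts are uncertain. Where such a member had no reads, as *Pcdha4*, *Pcdha11*, *Pcdhb12* and *Pcdhga10*, this cannot be read as lack of RNA. The limit is strictest for *Pcdhga10* and *Pcdha4*, which kept 0 and 404 bases, while *Pcdhb12* and *Pcdha11* kept 1107 and 1268. Levels of different members are therefore compared below as CPM (counts scaled to library size) per kilobase of own sequence. Sequence also found in other genes was a smaller limit for most members. Cut into 75-base windows, the length of a read, the first exons had a median of 89.9% (alpha), 98.8% (beta) and 100% (gamma) of windows found in no other gene. The lowest was 17.5% for *Pcdha4*. The gene model *Gm42416* covers most of its first exon at the same place, and such overlaps count here as another gene.

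**Figure D1:**
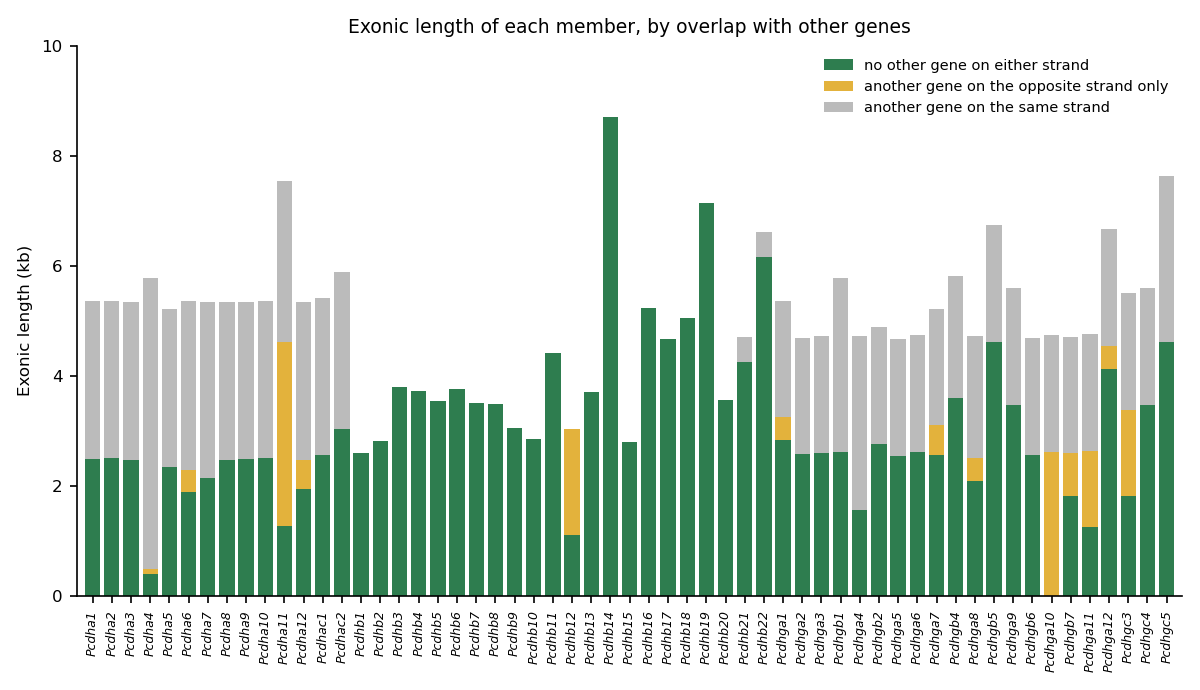
Exonic length in kilobases of each of the 57 members in genomic order, split into bases that no other gene covers on either strand, bases that another gene covers on the opposite strand only and bases that another gene covers on the same strand. Alpha and gamma members end in a shared part with a median of 2860 and 2119 bases, nearly all beta bars are wholly their own, and no base of *Pcdhga10* is free of other genes.

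Across the 57 members, 1 rose in *Eya1*cKO and none was called lower. Of the members, 8 had no read in any library, 41 passed the filter on low counts and were tested, and 16 were not tested. The member that rose was *Pcdhac2*, which is 1 of 41 tested against a background of 9.56% of all genes. At an unadjusted p threshold of 0.05 there were 8 members, 2 higher and 6 lower, where 28.8% of all genes tested passed. DESeq2's Wald test called 3 members, *Pcdhac2*, *Pcdhb8* and *Pcdha2*, all higher, with a background of 15.7% of genes. Log2 fold changes were positive for 22 of the tested members and negative for 19 (9730 and 9311 over all genes tested), with a median of 0.16 against 0.02 over all genes tested. Both libraries of a genotype lay on the same side of the other genotype for 20 of 41 members (48.8%), 11 higher and 9 lower in *Eya1*cKO, where 55.3% of all genes tested were so separated. The shares of members that passed a threshold or were so separated were not above those of all genes. Because the sorted cells were measured in bulk, fewer cells of a type and less RNA per cell cannot be told apart.

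**Figure D2:**
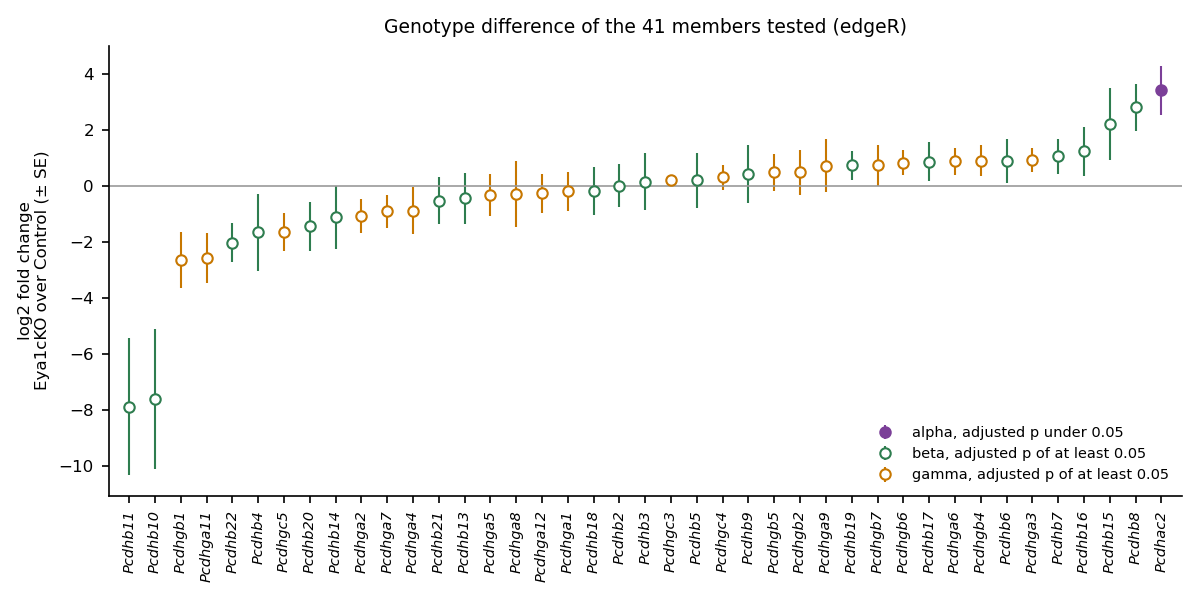
Log2 fold change of *Eya1*cKO over Control (points, bars ± SE, edgeR) for the 41 members tested, ordered by size and coloured by cluster, with a filled point for an adjusted p under 0.05. Only *Pcdhac2* is filled, at 3.43, and the values of *Pcdhb10* and *Pcdhb11*, which had no read in *Eya1*cKO, depend on the fit's prior count.

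In the alpha cluster the C-type member *Pcdhac2* rose about 10.8-fold, and nearly all other alpha members were at or near the limit of detection in every library. *Pcdhac2*, which in the brain is known for the spacing of serotonergic axons, had 17 and 15 Control reads and 148 and 46 mutant reads. Both mutant libraries were thus above both Controls, although *Eya1*cKO 1 was well above *Eya1*cKO 2. Its level was 0.444 ± 0.061 CPM in Control and 4.59 ± 2.78 CPM in *Eya1*cKO (mean ± SD, n = 2 libraries per genotype here and below), and its log2 fold change was 3.43 ± 0.87 SE (adjusted p = 0.048 by edgeR). The call lay close to the threshold. The call was lost with no low-count filter (adjusted p = 0.092 by edgeR), with the legacy quasi-likelihood method (0.12) and with the replicate block (0.083). Under these settings the log2 fold change was 3.42, 3.36 and 3.35. Leaving out either Control library also lost the call, with log2 fold changes of 3.55 without Control 1 and 3.28 without Control 2. The log2 fold change was 2.55 without *Eya1*cKO 1 and 3.86 without *Eya1*cKO 2.

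Apart from *Pcdhac2*, most alpha reads of each mutant library came from a single member. *Pcdha2* had 85 reads in *Eya1*cKO 2 and none in the other 3 libraries. *Pcdha6* had 26 reads in *Eya1*cKO 1 and none in the others. Both are alternate members, the class among which a cell chooses, and neither passed the filter on low counts, so neither was tested in the main edgeR fit. The DESeq2 call of *Pcdha2* rests on the 85 reads of *Eya1*cKO 2. *Pcdha10* had 0 and 5 reads in the Controls against 0 and 4 in the mutants. The other C-type member, *Pcdhac1*, had no read in any library, as did *Pcdha1*, *Pcdha3*, *Pcdha4* and *Pcdha11*. With *Pcdha10* counted among them, the 6 other members with reads reached at most 8 reads in any library. A library's 3 reads, the limit that a count of 0 allows, correspond to 0.0859 and 0.0801 CPM for the Controls and to 0.133 and 0.171 CPM for the mutants, counting error only. Summed over the 13 members other than *Pcdhac2*, there were 7 and 25 Control reads against 26 and 91 in the mutant libraries.

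Other cell types' markers moved between the genotypes in the same libraries, and their part in the alpha cluster was not tested. Of 12 markers of sympathetic neurons and chromaffin cells, 9 rose and 1 fell, and their summed level was 45 to 49.6 CPM in Control and 421 to 472 CPM in *Eya1*cKO. All 5 adrenal cortex markers rose (10.5 to 15.2 against 630 to 646 CPM), as did 5 of 7 of renal stroma (1781 to 1796 against 3316 to 3583 CPM), 6 of 7 of podocytes (879 to 900 against 2773 to 2829 CPM) and 7 of 7 of endothelium (558 to 571 against 960 to 1041 CPM). Of 7 Schwann cell and neural crest markers 5 were tested and 1 rose (27.5 to 29 against 30 to 40.2 CPM), with *Foxd3* at no more than 3 reads in the Controls and *S100b* in *Eya1*cKO. All 8 nephron progenitor markers fell (1154 to 1162 against 207 to 242 CPM) and 2 of 7 ureteric bud markers did (259 to 262 against 173 to 181 CPM). Of the blood markers 2 were tested and neither was called, and the globin genes *Hbb-bt* and *Hba-a1* had at most 3 reads in any library.

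In the beta cluster no member was called by edgeR (0 of 20 tested, 4 at an unadjusted p threshold of 0.05), and DESeq2 called *Pcdhb8* alone. Of the 22 beta members, 2 had no read in any library. These are *Pcdhb1* and *Pcdhb12*, of which only *Pcdhb1* is free of genes on the other strand. The members with the highest CPM averaged over all 4 libraries, which are described next, were *Pcdhb8*, *Pcdhb16*, *Pcdhb17* and *Pcdhb19*. This order does not allow for length or genotype: per kilobase the highest Control means were those of *Pcdhb20* (0.998 ± 0.456 CPM), *Pcdhb22* (0.95 ± 0.0929) and *Pcdhb7* (0.832 ± 0.0427), which overlap within the SD of *Pcdhb20*, and *Pcdhb8* had 0.32 ± 0.279. Beta proteins join alpha and gamma proteins in mixed complexes at the cell surface.

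*Pcdhb8* had counts of 63 and 16 in Control, then 108 and 202 in the mutants. Its mutant levels, 4.78 and 11.5 CPM, were above both Control levels of 1.8 and 0.427 CPM, and the log2 fold change was 2.82 ± 0.85 SE (adjusted p = 0.086 by edgeR, 2.2e-05 to 0.7 over the alternatives). *Pcdhb19* had 144 and 205 Control reads and 217 and 107 mutant reads, and its levels of 4.12 and 5.47 CPM against 9.6 and 6.1 CPM also did not overlap (log2 fold change 0.74 ± 0.51 SE, adjusted p = 0.38 by edgeR). *Pcdhb16* and *Pcdhb17* behaved otherwise, with 1 mutant library above and the other below both Controls. *Pcdhb16* had 83 and 137 reads in the Controls against 268 and 21 in the mutants. *Pcdhb17* had 127 and 137 Control reads against 232 and 38 in the mutant libraries. Their log2 fold changes of 1.24 ± 0.86 SE and 0.88 ± 0.71 SE took their sign from *Eya1*cKO 1, and without it they were -1.35 and -0.76.

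The neighbouring genes *Pcdhb10* and *Pcdhb11* had reads in both Controls and none in either mutant library. *Pcdhb10* had 23 and 40 Control reads and *Pcdhb11* had 40 and 36. Set against the 3-read limit in each mutant library, *Pcdhb10* was at least 5-fold lower and *Pcdhb11* at least 6.2-fold lower in *Eya1*cKO, with adjusted p = 0.11 and 0.1 by edgeR. Such losses were frequent among genes at this level. Among all genes with a mean of 20 to 40 Control reads, 311 of 2216 (14%) had no read in both *Eya1*cKO libraries, against 2 of 6 members. In the next class, 40 to 80 Control reads, 2 of 7 members and 21.3% of 1810 genes were at 0 in at least 1 mutant library, and both of those members, *Pcdhb4* and *Pcdhga8*, were at 0 in *Eya1*cKO 1. *Pcdhb4* and *Pcdhga8*, and *Pcdhb22*, *Pcdhgb1* and *Pcdhga11* below, fall outside the rule for named genes and were chosen after their values were seen. *Pcdhb22*, the last beta member and that with the most reads of the cluster in both Controls, had counts of 190 and 234 in Control, then 22 and 36 in the mutants (log2 fold change -2.02 ± 0.70 SE, unadjusted p = 0.022, adjusted p = 0.11 by edgeR).

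In the gamma cluster no member was called by edgeR or by DESeq2 (0 of 20 tested, 3 at an unadjusted p threshold of 0.05, all lower). The C-type member *Pcdhgc3* stood above all others. Unlike most members it is known to be expressed outside the nervous system as well, and its cytoplasmic part can bind the Wnt pathway scaffold Axin1. It had 1773 and 2442 Control reads and 1492 and 1200 mutant reads. Per kilobase of its own sequence its level was 31.8 ± 5.61 CPM in Control and 36.9 ± 0.923 CPM in *Eya1*cKO. The next in order, *Pcdhgb6* and *Pcdhgb7*, had 5.11 ± 0.297 and 4.25 ± 0.563 CPM per kilobase in Control, which differ by more than the SD of either, and 9.62 ± 5.88 and 7.79 ± 8.13 in *Eya1*cKO, which do not. *Pcdhgc3* made up 36.7% and 39.4% of gamma reads in the Controls and 43.8% and 31.8% in *Eya1*cKO. Its log2 fold change was 0.21 ± 0.18 SE (adjusted p = 0.48 by edgeR), the smallest standard error of any member.

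The other C-type gamma members went in different directions, neither past the threshold. *Pcdhgc4*, whose protein is needed for the survival of interneurons, had 197 and 261 reads in the Controls against 182 and 134 in the mutants, and its CPM were 5.64 and 6.97 against 8.05 and 7.64 (log2 fold change 0.31 ± 0.45 SE, adjusted p = 0.69 by edgeR). *Pcdhgc5*, a late neuronal isoform, had 173 and 210 Control reads against 45 and 23 in the mutant libraries. Both mutant libraries lay below both Controls, with a log2 fold change of -1.64 ± 0.67 SE (unadjusted p = 0.042, adjusted p = 0.16 by edgeR, 0.025 to 0.71 over the alternatives). In the windows check 86.4% of the windows of *Pcdhgc5* and 100% of those of *Pcdhgc3* and *Pcdhgc4* were found in no other gene.

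Among the alternate gamma members, the A type and B type, *Pcdhga3* had counts of 201 and 311 in Control, then 355 and 185 in the mutants, with mutant levels of 15.7 and 10.5 CPM above Control levels of 5.76 and 8.31 CPM (log2 fold change 0.92 ± 0.43 SE, adjusted p = 0.2 by edgeR). *Pcdhgb6* had 439 and 511 Control reads and 317 and 620 mutant reads. In CPM only *Eya1*cKO 2, at 35.3, stood apart from the other libraries, which were at 12.6, 13.6 and 14 (log2 fold change 0.84 ± 0.44 SE, adjusted p = 0.26 by edgeR). *Pcdhgb7* had 296 and 263 reads in the Controls against 84 and 433 in the mutants, so that 1 mutant library was below and the other above both Controls (log2 fold change 0.75 ± 0.73 SE, and -1.07 without *Eya1*cKO 2). *Pcdhgb1*, an alternate member near the start of the cluster, had 93 and 100 Control reads against 16 and 1 in the mutant libraries (log2 fold change -2.64 ± 1.01 SE, adjusted p = 0.13 by edgeR). *Pcdhga11* had counts of 95 and 132 in Control, then 17 and 4 in the mutants (log2 fold change -2.57 ± 0.88 SE, adjusted p = 0.1 by edgeR).

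**Figure D3:**
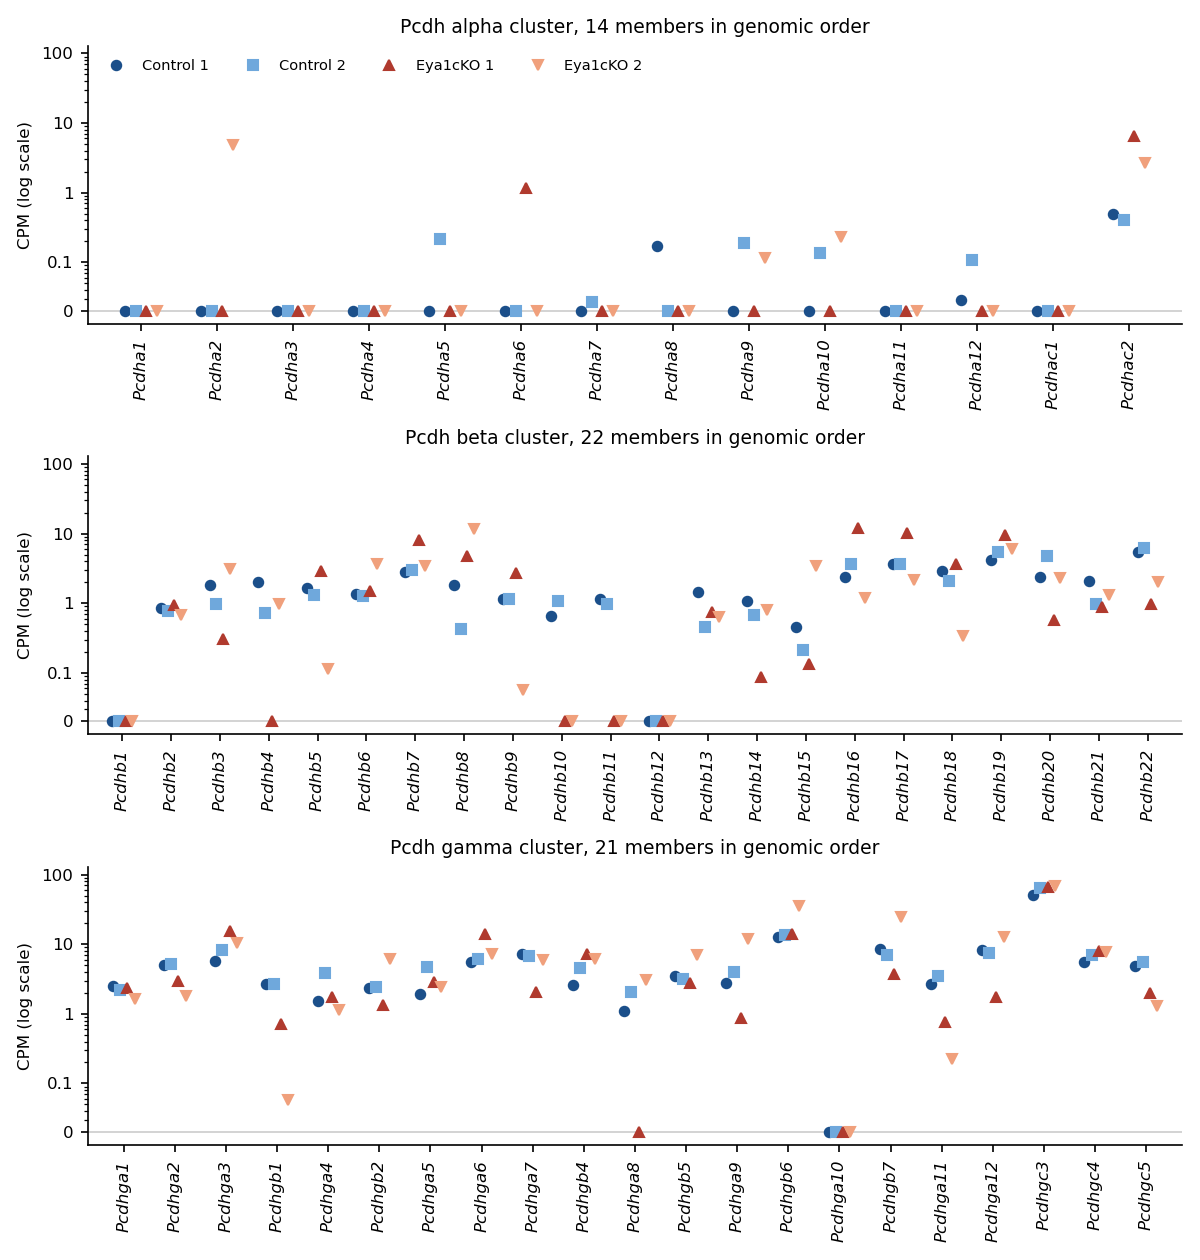
Level in CPM (log scale, with 0 drawn on the grey line) of each member in each of the 4 libraries, in genomic order, for the alpha, beta and gamma clusters. The Controls lie close together for most beta and gamma members while the *Eya1*cKO libraries scatter around them, alpha members other than *Pcdhac2* are mostly at 0, and *Pcdhgc3* is the highest in every library.

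The summed levels of the clusters differed far less between genotypes than many single members did, except in the alpha cluster. Alpha members together had 0.687 and 1.07 CPM in Control against 7.7 and 7.81 CPM in *Eya1*cKO, a log2 ratio of means of 3.14. Without *Pcdhac2* the log2 ratio was 2.87 and rested on *Pcdha6* in *Eya1*cKO 1, which gave 100% of those reads, and on *Pcdha2* in *Eya1*cKO 2, which gave 93.4%. Beta members together had 41.2 and 39.8 CPM in Control and 60.1 and 43.9 CPM in *Eya1*cKO, a log2 ratio of 0.36 that was 0.12 without *Eya1*cKO 1. Gamma members together had 138 and 166 CPM in Control and 151 and 215 CPM in *Eya1*cKO, so the genotypes overlapped. The gamma log2 ratio of 0.27 came from *Eya1*cKO 2 and was -0.01 without it. By type, the A-type log2 ratio was 0.07, that of the B type 0.73 and that of the C type 0.14, with overlap in all 3. The B-type sum was 32.2 and 33.5 CPM in Control, 29.7 in the first mutant library and 79.4 in the second. No test was made on sums.

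**Figure D4:**
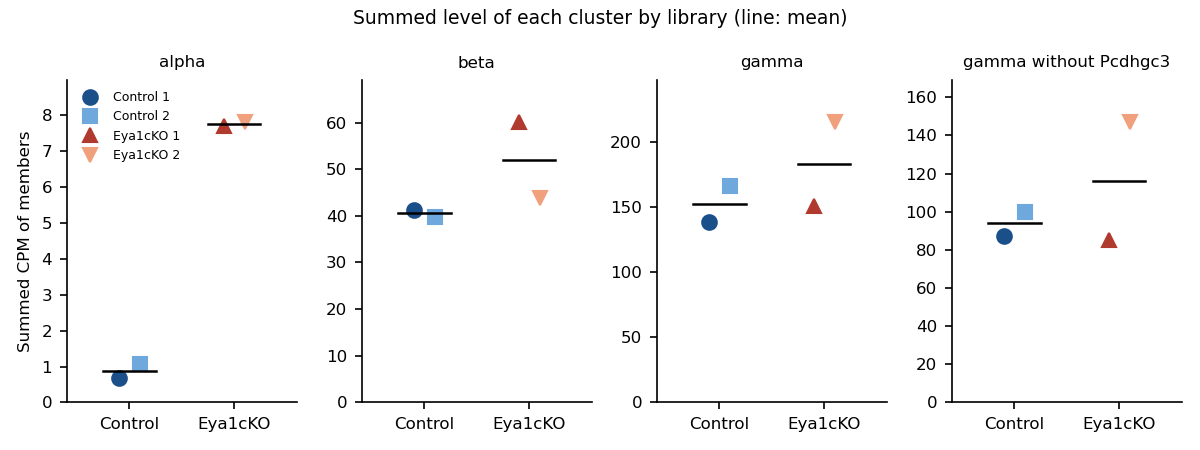
Summed CPM of the members of each cluster in the 4 libraries (points) with the mean of each genotype (lines), on axes from 0 that differ between panels. The alpha sums, 0.687 and 1.07 in Control and 7.7 and 7.81 in *Eya1*cKO, are the only ones that stand far apart, while those of the gamma cluster overlap with and without *Pcdhgc3*.

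How evenly reads were spread over members differed between the genotypes in some sets and not in others. The effective number of members, which is the number of equally abundant members that would give the same evenness of reads, was 14.9 and 11.2 in Control and 7.8 and 8.15 in *Eya1*cKO for the beta cluster. For the gamma cluster without *Pcdhgc3* it was 13.7 and 15 in Control and 8.81 and 8.42 in *Eya1*cKO. With *Pcdhgc3* the gamma genotypes overlapped (6.09 and 5.57 against 4.4 and 6.4), as did those of the alpha cluster (1.77 and 4.21 against 1.34 and 2.01) and of all members (9.98 and 8.42 against 8.42 and 9.5). The beta member with the most reads was *Pcdhb22* in both Controls (13.2% and 15.7% of beta reads), *Pcdhb16* in *Eya1*cKO 1 (19.7%) and *Pcdhb8* in *Eya1*cKO 2 (26.2%). At least 1 read was found on 43 and 46 members in the Controls but on 38 and 42 in the mutants. Over all genes the numbers were 26486 and 27091 against 21455 and 20538, and reads that did not align made up 6.32% and 6.69% against 12.9% and 12.7%. Thinning every library to 17457452 reads changed these numbers little, to 42.5, 45.3, 37.9 and 42. The cause of the lower evenness in the beta cluster and in the gamma cluster without *Pcdhgc3* was not tested.

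The 2 mutant libraries differed widely from each other. For differences between libraries 2 prior counts were added before taking log2 CPM, which narrows them where counts are low. The absolute log2 difference between libraries of a genotype had a median of 0.30 over the 41 tested members in Control and of 1.30 in *Eya1*cKO. On this scale no member differed more than 4-fold between the Controls, where in plain CPM *Pcdhb8* did (1.8 against 0.427), and 15 of 41 (36.6%) did between the mutant libraries. The same held for other genes at these counts: over 6867 genes with 20 to 300 reads on average the medians were 0.43 and 1.38, and on the same scale 4.18% and 36.4% differed more than 4-fold, against 0 and 38.9% of the 36 members in that range. The share of members that differed more than 4-fold was thus close to that of other genes at these counts. Its direction varied by member, with 21 of the 41 members higher in *Eya1*cKO 1, 18 higher in *Eya1*cKO 2 and 2 at 0 in both.

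For 14 of 41 members (34.1%) the mutant libraries lay on opposite sides of both Controls, against 26.3% of all genes tested. Among those with 20 to 300 reads on average the shares were 14 of 36 members (38.9%) and 32.7% of genes. *Eya1*cKO 1 was the high library for 6 of the 14, all of the beta cluster: *Pcdhb2*, *Pcdhb5*, *Pcdhb9*, *Pcdhb16*, *Pcdhb17* and *Pcdhb18*. *Eya1*cKO 2 was the high library for the other 8, *Pcdhb3* and *Pcdhb15* of the beta cluster and *Pcdhgb2*, *Pcdhga8*, *Pcdhgb5*, *Pcdhga9*, *Pcdhgb7* and *Pcdhga12* of the gamma cluster. These lists were chosen after the values were seen, and no test of the difference between clusters was made.

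**Figure D5:**
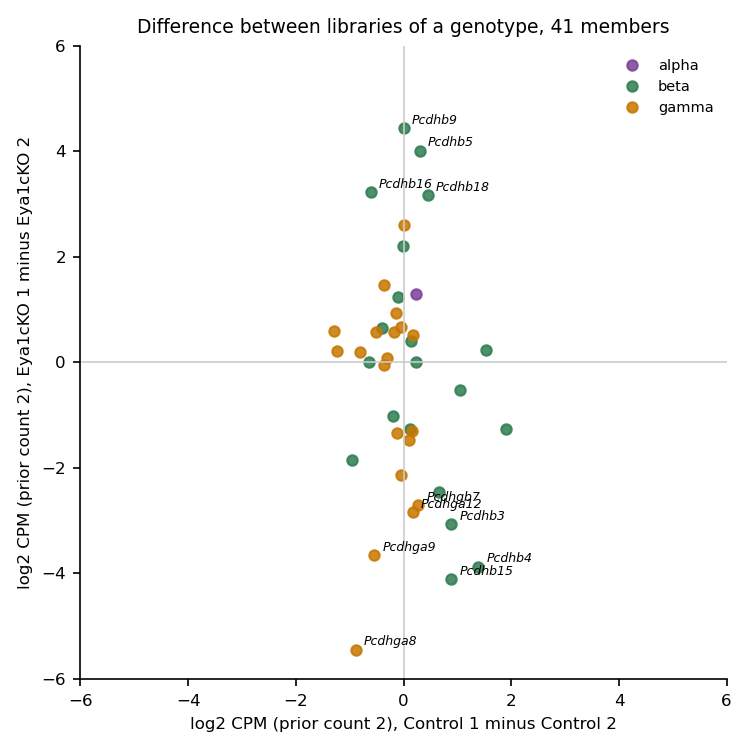
Difference in log2 CPM (prior count 2) between Control 1 and Control 2 (horizontal) and between *Eya1*cKO 1 and *Eya1*cKO 2 (vertical) for the 41 members tested, coloured by cluster and drawn on equal axes. The points spread much more along the vertical axis, where the median absolute difference is 1.30, than along the horizontal axis, where it is 0.30.

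Position within a cluster went with level only loosely. Across the 22 beta genes, Spearman's rho between genomic order and CPM per kilobase was 0.40 and 0.41 in Control and 0.17 and 0.15 in *Eya1*cKO. This takes *Pcdhb12*, with little own sequence, at its count of 0, and without it the Control values were 0.44 and 0.45. Across the 17 alternate gamma members with at least 500 own bases it was 0.17 and 0.24 in Control and -0.20 and 0.44 in *Eya1*cKO. These describe genes that share libraries and they carry no p. The 7 beta members from *Pcdhb16* on summed to 23 and 26.8 CPM in Control and to 37.8 and 15.4 CPM in *Eya1*cKO, while the 15 before them summed to 18.3 and 13 CPM in Control and to 22.3 and 28.5 CPM in *Eya1*cKO.

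Of 24 genes that act on the choice of protocadherin promoters, 4 (16.7%) were called, all lower, where 9.56% of all genes tested were called in either direction. Each of the 24 had over 10 reads in every library. Among all genes with at least 10 reads in every library 15.5% were called, close to the share of the 24. With the replicate block only *Dnmt1* and *Uhrf1* kept their calls. Of 11 genes for CTCF, cohesin and its loading and release factors, 1 fell and none rose (median log2 fold change -0.24). The gene that fell was *Ctcf*, the factor that binds protocadherin promoters and enhancers and brings them together, with 8456 and 8486 Control reads and 3670 and 3242 mutant reads (log2 fold change -0.44 ± 0.10 SE, adjusted p = 0.041 by edgeR). Of 13 genes for silencing and DNA methylation, 3 fell and none rose (median -0.25). *Smchd1*, a silencing factor of the inactive X chromosome that also represses clustered protocadherins, fell by 0.64 on the log2 scale (SE 0.11, adjusted p = 0.015). *Dnmt1*, the maintenance DNA methyltransferase, fell by 0.59 (SE 0.08, adjusted p = 0.0066), and its recruiter *Uhrf1* fell by 0.72 (SE 0.08, adjusted p = 0.0045). *Rest*, which encodes a repressor of neuronal genes, had a log2 fold change of -0.29 ± 0.08 SE and did not pass (adjusted p = 0.077 by edgeR). *Rest* too was chosen after its value was seen.

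Of 14 partners and signalling genes, 2 fell and none rose (median -0.12). *Wasf1*, a subunit of the actin-regulating WAVE complex to which alpha proteins can bind, had 2648 and 2326 reads in the Controls against 881 and 561 in the mutants (log2 fold change -0.94 ± 0.20 SE, adjusted p = 0.031 by edgeR). *Ret*, the GDNF receptor tyrosine kinase, which is also among the ureteric bud markers, had 750 and 856 Control reads against 145 and 95 in the mutant libraries (log2 fold change -1.89 ± 0.36 SE, adjusted p = 0.023 by edgeR). Of 6 genes for the proteases that cleave protocadherins at the membrane, 1 rose. It was *Ncstn*, a subunit of gamma-secretase, with counts of 3532 and 3880 in Control, then 4453 and 2408 in the mutants (log2 fold change 0.72 ± 0.17 SE, adjusted p = 0.043 by edgeR).

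The protocadherins encoded outside the clusters were measured for comparison. Of 12 such genes, 1 rose and none fell, with a median log2 fold change of 0.44 against 0.16 over the clustered members tested. The gene that rose was *Pcdh12*, the vascular endothelial protocadherin, with 767 and 746 Control reads and 980 and 660 mutant reads (log2 fold change 0.96 ± 0.22 SE, adjusted p = 0.038 by edgeR). The summed level of the 12 genes was 345 and 315 CPM in Control and 422 and 432 CPM in *Eya1*cKO, and that of the 57 clustered members was 180 and 206 CPM in Control and 219 and 267 CPM in *Eya1*cKO. Of the 51 different genes called over these lists and the marker lists, 8 kept their call without Control 1 and 8 without Control 2, all of them markers. With no low-count filter *Dnmt1*, *Uhrf1*, *Smchd1* and *Ret* kept theirs among the other genes, while *Ctcf*, *Wasf1*, *Ncstn* and *Pcdh12* did not, likewise with the legacy method, and *Ctcf* also lost its call with library totals alone.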

How the data were processed

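The authors sequenced random-primed stranded libraries of sorted kidney cells from a single end in 75-base reads, mapped them to mm10 with HISAT2 and counted reads per Ensembl gene with HTSeq. The deposited values are raw counts per gene. The strand setting is not given in the sources used here. Symbols and coordinates came from GENCODE M21 on GRCm38, which pairs 52403 of 52636 identifiers with a symbol. The authors had counted against an Ensembl annotation and not GENCODE M21. Overlaps and own bases given here may therefore differ from those that assigned the reads. It gives 2 genes the name *Pcdha11*, and that at the RefSeq start of *Pcdha10* was taken as *Pcdha10*.

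Counts were tested with edgeR 4.0.16 in R 4.3.3 by the quasi-likelihood test on genotype, after filterByExpr (minimum count 10) and TMM scaling, with Benjamini-Hochberg adjustment over all 19041 genes tested, two-sided at 0.05. DESeq2 1.42.0 was an alternative. CPM are counts over TMM-scaled totals, and limits for counts of 0 use 3 reads. Standard errors are log2 fold changes over the root of the F statistic.

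Members and lists were chosen with earlier results of these data known. Named were *Eya1*, members past the threshold, the 4 most abundant of each cluster, C-type members, members with at least 10 mean Control reads and none in *Eya1*cKO, and, of other lists, up to 4 genes past the threshold. No nucleotide sequence is shown.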

Additional observations from a re-analysis of the deposited data

How the results depend on the processing

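The call of *Pcdhac2* as the single member that rose held with DESeq2's size factors and with library totals. No member was called higher with no low-count filter (1055 genes called in all), with legacy quasi-likelihood (1096) or with the replicate block (621, against 1820). The log2 fold change of *Pcdhac2* was still 3.42, 3.36 and 3.35 there. With at least 10 reads in every library 2 of 29 rose (6.9%, all genes 15.5% in either direction), *Pcdhac2* and *Pcdhb8*, and with DESeq2's Wald test 3 did (3102 genes called). The replicate numbers share only a number: deviations of same-numbered libraries correlated at 0.0062 (Pearson) and 0.0144 (Spearman) over 19041 genes, so the block is no pairing. Under it *Dnmt1* and *Uhrf1* kept their calls among the regulators, while *Ctcf*, *Smchd1*, *Ret*, *Wasf1*, *Ncstn* and *Pcdh12* lost theirs. Leaving out each library in turn gave 23 to 7925 genes called, 0 to 9 members higher and 0 to 6 lower. The low numbers came without either Control and the high ones without either *Eya1*cKO library, when the spread came from the Controls. Then 11 of 42 members (26.2%, all genes 33.5%) were called without *Eya1*cKO 1 and 15 of 42 (35.7%, all genes 35.3%) without *Eya1*cKO 2, and only *Pcdhac2*, *Pcdhb8* and *Pcdhgc5* both times. Leaving out a library turned the sign of the log2 fold change of 17 of 41 members, among the named ones *Pcdhb16* (-1.35 to 1.95), *Pcdhb17* (-0.76 to 1.48) and *Pcdhgb7* (-1.07 to 1.66). Cluster sums moved by less than the spread between libraries in every alternative, although the gamma log2 ratio turned from 0.27 to -0.01 without *Eya1*cKO 2. Of 141 alternative values for the log2 fold changes of named members, 138 kept their direction and 121 also their side of the threshold. Low counts limited what could be said of single members: of all genes with 20 to 40 Control reads, 46.7% were at 0 in at least 1 *Eya1*cKO library.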

Other observations

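Genes that lie among or next to the clusters gave values of their own, and were chosen after their values were seen. *Taf7*, which encodes a subunit of the general transcription factor TFIID, had 50.9 and 52.6 CPM in Control and 66.9 and 50.1 CPM in *Eya1*cKO (log2 fold change 0.19 ± 0.18 SE, adjusted p = 0.52 by edgeR). *Slc25a2*, a mitochondrial ornithine carrier, had 40 and 25 reads in Control and none in either *Eya1*cKO library, at least 5.3-fold lower (adjusted p = 0.12 by edgeR). *Diaph1*, which encodes an actin-nucleating formin and lies just beyond the gamma cluster, had 3778 and 3980 reads in Control and 1800 and 1158 in *Eya1*cKO (log2 fold change -0.55 ± 0.14 SE, adjusted p = 0.051 by edgeR). Of genes on the other strand, *Gm10544* had 53 and 23 reads in Control and 113 and 38 in *Eya1*cKO (log2 fold change 1.83 ± 0.82 SE, adjusted p = 0.19 by edgeR). *BC037039* had 55 and 49 against 92 and 45 (1.24 ± 0.70 SE, adjusted p = 0.29), and *Gm26672* had 19 and 17 against 12 and 0 (-0.73 ± 1.23 SE, adjusted p = 0.74). The pseudogene *Pcdhgb8* had 103 and 116 reads in Control and 35 and 103 in *Eya1*cKO.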
